A study of Mus musculus with 20 samples.

Results

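The seminal vesicle secretory genes, named Svs, were followed in the prostates of 5 inbred mouse strains. Their members were the array elements, the printed cDNA spots, that the array's annotation assigns to a single symbol among Svs1, Svs2, Svs3b, Svs4, Svs5 and Svs6. There were 10 such elements of 11552 on the array, 5 of them for Svs2 and 1 for each other gene, and all 10 had a value on every array. BALB/c, FVB/NJ, C57BL/6J, 129X1/SvJ and DBA/2 (DBA/2NCrl) mice aged 8 to 9 weeks gave 4 samples per strain, each a pool of RNA from 3 mice in which the dorsal, lateral, ventral and anterior lobes were equally represented. This makes 12 mice per strain and 60 in all, with no treatment in any group. Amplified RNA of each pool was hybridized in one dye against a common reference in the other dye, and the reference combined RNA of all samples. Values are log2 ratios of pool over reference, so that a value of 0 equals the reference, and they compare strains for 1 element but not levels between genes.

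Svs proteins are secreted in large amounts by the seminal vesicle epithelium under androgen control and form the bulk of the copulatory plug in rodents. Svs2, a relative of human semenogelin, and Svs3 are clot proteins that are cross-linked by Tgm4, a transglutaminase made by the anterior prostate. The anterior lobe lies along the seminal vesicle, and the tissues are parted by dissection. In bulk tissue, fewer cells of a type and less RNA per cell cannot be told apart.

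Of the 6 genes, 5 lie in 1 cluster of 98466 bp on chromosome 2 (GRCm38.p6, 164235929 to 164334394), and Svs1, a relative of the amine oxidases, lies on chromosome 6 (48986861 to 48991725). Upstream sequence is shown for 4 cluster genes, picked by their strain means. Svs2, on its element 2903, and Svs5 had the same order of means, Svs5 and Svs6 had different ones, and Svs4 followed both. The strain means of Svs4 and Svs6 did not pass the strain test below. Each run holds the 250 bases before the annotated start (RefSeq, GRCm38.p6, read 5′ to 3′ on the gene's strand), with 3 motifs in capitals, searched on both strands. They were the TATA box motif TATAAA, the GATA factor motif GATAAG and the androgen receptor half-site AGAACA, and a match on the other strand appears as the reverse complement. No matches overlapped in these windows.
Svs5: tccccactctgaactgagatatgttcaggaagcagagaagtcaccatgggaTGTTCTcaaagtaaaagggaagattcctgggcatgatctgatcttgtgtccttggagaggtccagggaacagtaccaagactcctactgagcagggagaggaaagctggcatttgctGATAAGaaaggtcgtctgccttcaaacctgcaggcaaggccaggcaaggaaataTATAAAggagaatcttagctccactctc
Svs6: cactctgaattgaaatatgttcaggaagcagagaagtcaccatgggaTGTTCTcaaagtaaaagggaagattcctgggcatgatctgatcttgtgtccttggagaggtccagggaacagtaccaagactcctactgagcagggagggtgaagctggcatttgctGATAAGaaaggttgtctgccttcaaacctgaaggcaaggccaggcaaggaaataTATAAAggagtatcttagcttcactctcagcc
Svs4: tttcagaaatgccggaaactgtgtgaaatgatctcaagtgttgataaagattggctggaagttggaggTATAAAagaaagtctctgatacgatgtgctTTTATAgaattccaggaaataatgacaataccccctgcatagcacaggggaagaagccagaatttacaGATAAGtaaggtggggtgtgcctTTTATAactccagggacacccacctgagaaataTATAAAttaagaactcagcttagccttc
Svs2: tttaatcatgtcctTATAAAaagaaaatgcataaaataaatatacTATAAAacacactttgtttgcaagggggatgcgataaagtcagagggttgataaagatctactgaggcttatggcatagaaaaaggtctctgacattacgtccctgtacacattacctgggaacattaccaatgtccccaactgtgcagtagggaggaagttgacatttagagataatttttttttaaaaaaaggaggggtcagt
The Svs5 window is chr2:164332515-164332764 and that of Svs6 chr2:164316501-164316750, both on the plus strand. Those of Svs4, chr2:164278308-164278557, and Svs2, chr2:164238342-164238591, are on the minus strand. Svs5 and Svs6 shared 93.3% of the aligned positions (237 of 254), whereas the other 14 pairs among the 6 genes shared 42.0% to 56.6%. GATAAG stood on the gene strand between positions -96 and -77 from the start of Svs3b, Svs4, Svs6 and Svs5 and was not found in the windows of Svs2 and Svs1. On either strand it was present in 6.55% of 32851 promoter windows of the same length. AGAACA or its complement was present for Svs5, Svs6, Svs3b and Svs1, against 16.1% of all windows, and TATAAA or its complement for the 5 cluster genes, against 12.4%. A TATAAA stood on the gene strand between positions -32 and -23 for Svs3b, Svs4, Svs6 and Svs5. The matches of Svs2 lay farther away, beginning at -236 and -205. The motifs were chosen after the sequences were seen and are a description of letters, not of binding.

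Svs2 was far higher in BALB/c than in the other strains and also differed widely between pools within FVB/NJ, C57BL/6J and 129X1/SvJ. On its representative element (number 2903), pools 1 to 4 of BALB/c read 2.56, 1.64, 1.39 and 1.73 on the log2 scale. The FVB/NJ pools read 0.12, -6.84, -0.36 and -1.26, and the C57BL/6J pools -7.63, -1.58, -4.79 and -5.11. Each BALB/c pool lay above the 16 pools of the other strains, and the FVB/NJ pools split into 3 near the reference and pool 2 far below it. The 129X1/SvJ pools read -5.97, -1.06, -7.31 and -7.21, and the DBA/2 pools -3.46, -6.16, -6.88 and -6.46. In 129X1/SvJ, pool 2 stood apart from the other three, and DBA/2 had no pool near the reference. Strain means were 1.83 ± 0.51 in BALB/c, -2.08 ± 3.22 in FVB/NJ, -4.78 ± 2.48 in C57BL/6J, -5.39 ± 2.95 in 129X1/SvJ and -5.74 ± 1.55 in DBA/2 (SD, n = 4 pools each). The highest and lowest strain means were 190.0-fold apart.

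**Figure D1:**
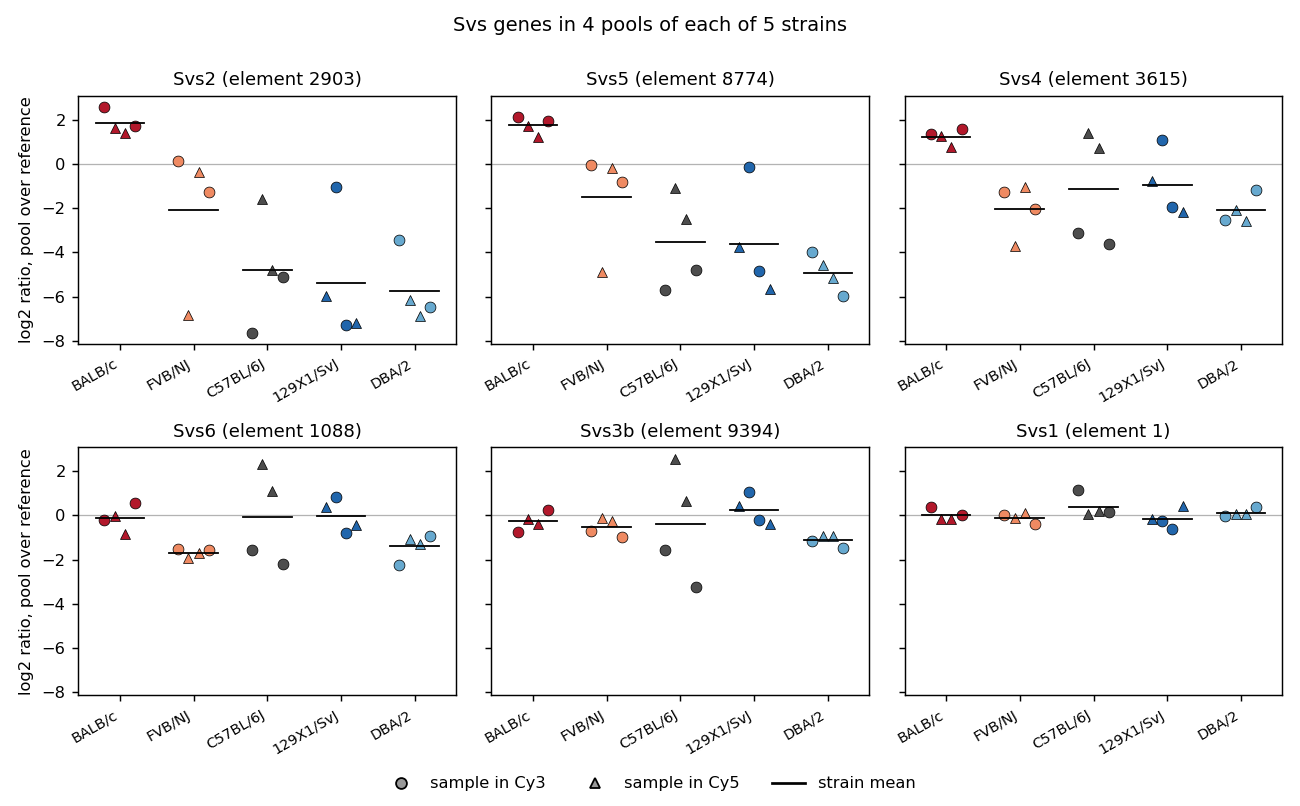
Log2 ratio of pool over reference (vertical axis) for the representative element of each Svs gene in the 4 pools of each strain (horizontal axis), with circles for samples in Cy3, triangles for samples in Cy5 and black bars for strain means. BALB/c pools of Svs2 lie between 1.39 and 2.56, above the pools of the other strains, whereas the pools of Svs1 lie near 0, apart from C57BL/6J pool 1 at 1.14.

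The other 4 elements of Svs2 gave the same order at the top. Of the 5, 4 match the same sequence record, so they are not independent measurements of the gene. Over the 20 arrays they correlated with each other at Pearson's r of 0.979 to 0.996 (10 pairs of elements), beside a median of 0.358 over 2934 pairs of elements that share another gene. On an array the 5 elements spanned a median of 0.814 and at most 2.84 on the log2 scale. The gap was widest among pools with low values, where element 5894 was less negative than element 2903 in C57BL/6J pool 1 (-5.15 against -7.63). The range over strain means was accordingly smaller for element 5894, at 83.0-fold, and for element 10474, at 95.2-fold, than for elements 5425 and 5780, at 197.1-fold and 191.0-fold. Element 5894 also differed from the others in its lowest strain, which was 129X1/SvJ in place of DBA/2.

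**Figure D2:**
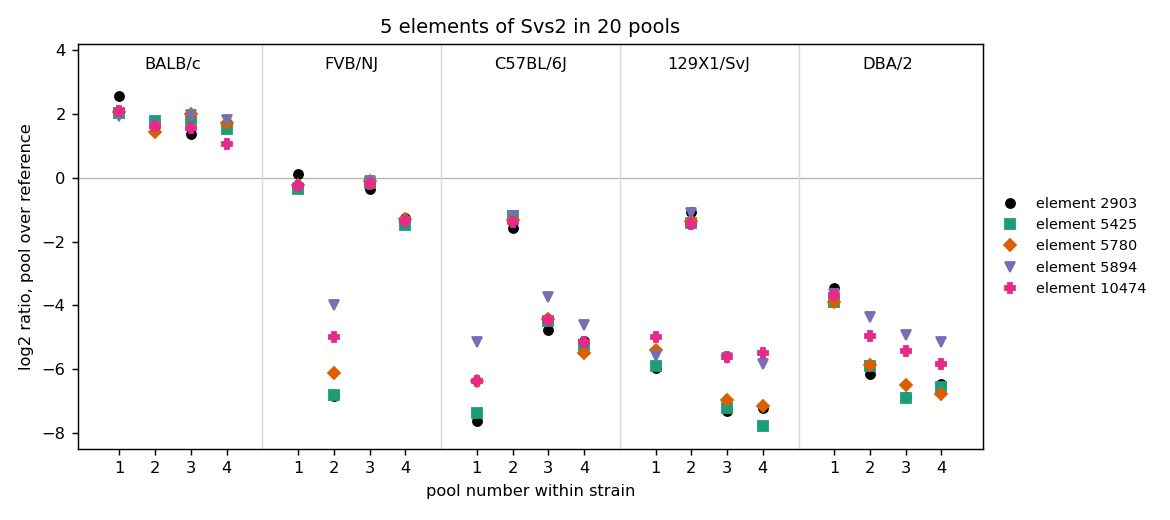
Log2 ratio of pool over reference (vertical axis) for the 5 elements of Svs2 in each of 20 pools (horizontal axis, pool number within strain), one symbol per element. The elements move together from pool to pool (r of 0.979 to 0.996) and spread apart where values are low, as in FVB/NJ pool 2.

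Svs5, a small secretory protein of the same cluster, followed Svs2 closely. Its element read 2.11, 1.71, 1.23 and 1.94 in BALB/c pools 1 to 4, against -0.05, -4.89, -0.18 and -0.82 in FVB/NJ. In C57BL/6J it read -5.73, -1.08, -2.49 and -4.79. The same pools stood apart as for Svs2, with FVB/NJ pool 2 low, and BALB/c did not overlap any other strain. The 129X1/SvJ pools read -3.74, -0.13, -4.86 and -5.68 and the DBA/2 pools -3.99, -4.56, -5.16 and -5.99. Strain means were 1.75 ± 0.38 in BALB/c, -1.49 ± 2.29 in FVB/NJ, -3.52 ± 2.12 in C57BL/6J, -3.60 ± 2.45 in 129X1/SvJ and -4.92 ± 0.86 in DBA/2 (SD, n = 4), a range of 101.9-fold.

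Svs4, which in the rat encodes a secretory protein with immunomodulatory activity, was high in BALB/c but overlapped other strains. Its BALB/c pools read 1.34, 1.24, 0.79 and 1.58, against -1.29, -3.72, -1.06 and -2.06 in FVB/NJ and -2.55, -2.08, -2.58 and -1.20 in DBA/2. The C57BL/6J pools read -3.12, 1.38, 0.73 and -3.60 and those of 129X1/SvJ -0.78, 1.10, -1.97 and -2.16. Thus BALB/c lay wholly above FVB/NJ and DBA/2, whereas C57BL/6J pool 2 and 129X1/SvJ pool 2 lay within the BALB/c range and C57BL/6J pool 3 just below it. Strain means were 1.24 ± 0.33 in BALB/c, -2.03 ± 1.20 in FVB/NJ, -1.15 ± 2.57 in C57BL/6J, -0.952 ± 1.498 in 129X1/SvJ and -2.10 ± 0.65 in DBA/2 (SD, n = 4), 10.1-fold from highest to lowest.

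Svs6 and Svs3b, a further small secretory protein and a clot protein, had a different order of strain means, but neither passed the strain test below. Svs6 read -0.20, -0.04, -0.84 and 0.57 in BALB/c, against -1.52, -1.92, -1.70 and -1.58 in FVB/NJ and -2.24, -1.05, -1.31 and -0.92 in DBA/2. The FVB/NJ pools were close to each other, including pool 2, which stood far below its strain for Svs2 and Svs5. In C57BL/6J, Svs6 read -1.56, 2.32, 1.09 and -2.20, and in 129X1/SvJ 0.38, 0.81, -0.78 and -0.44. Its highest strain mean was that of 129X1/SvJ (-0.01 ± 0.73) and its lowest that of FVB/NJ (-1.68 ± 0.18), 3.18-fold apart. The means of C57BL/6J (-0.09 ± 2.15) and BALB/c (-0.13 ± 0.58) were close to the highest. Svs3b read -1.55, 2.57, 0.64 and -3.22 in C57BL/6J, while its other 16 pools lay between -1.46 (DBA/2 pool 4) and 1.08 (129X1/SvJ pool 2). Its strain means ranged 2.58-fold, with 129X1/SvJ highest (0.24 ± 0.66) and DBA/2 lowest (-1.13 ± 0.25). Svs1 stayed near the reference in most pools, with strain means from -0.15 ± 0.43 in 129X1/SvJ to 0.39 ± 0.50 in C57BL/6J and 1 pool above 1 (C57BL/6J pool 1, at 1.14).

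To ask whether strains differed beyond the spread between pools, the 5 strain means were compared by limma's moderated F test over 11159 elements. At an adjusted p of at most 0.1, 6 of 10 Svs elements passed, beside 11.3% of all elements tested. These were the 5 elements of Svs2 (adjusted p from 3.99e-04 to 0.00632) and that of Svs5 (adjusted p = 0.00362). Since the Svs2 elements are not independent, the count by gene is Svs2 and Svs5 alone, beside 725 of 5820 named genes. The members were chosen with earlier results of these data known, so both counts are descriptions and not independent tests. Svs4 missed the threshold (adjusted p = 0.105), and it passed in several alternatives given in the closing section. The adjusted p was 0.266 for Svs6, 0.466 for Svs1 and 0.776 for Svs3b.

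BALB/c was then set against the mean of the other 4 strains. It was known from earlier results of these data to be highest for Svs2 and Svs5. For these genes the comparison is therefore a description of size and not an independent test. The same 6 elements were higher in BALB/c at an adjusted p under 0.05, and for these 6 the BALB/c pools did not overlap the others. The shares of all elements were 0.914% higher in BALB/c by the test and 0.296% with all BALB/c pools above the 16 others. The log2 difference was 6.33 (SE 1.17, limma adjusted p = 0.0035) for Svs2 element 2903, and 5.38 to 6.35 over its 5 elements. For Svs5 it was 5.13 (SE 0.90, limma adjusted p = 0.00225). Svs4 had a difference of 2.80 (SE 0.73, limma adjusted p = 0.0532) and Svs6 one of 0.66 (SE 0.54, limma adjusted p = 0.859). With the sample in Cy3 alone (10 arrays) the difference of Svs2 element 2903 was 6.17, and with the sample in Cy5 alone 6.49, neither past the threshold (limma adjusted p = 0.107 and 0.120). No Svs element passed for the other strains against the rest in limma, beside 2.55% of all elements for FVB/NJ, 3.22% for C57BL/6J, 5.70% for 129X1/SvJ and 1.96% for DBA/2. At an unadjusted p under 0.05 the counts of Svs elements were 1, 2, 5 and 6 in the same order of strains. The calls depended on single pools. Without FVB/NJ pool 2, 4 elements passed for DBA/2 and 1 for 129X1/SvJ, and without 129X1/SvJ pool 2, 5 passed for 129X1/SvJ.

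**Figure D3:**
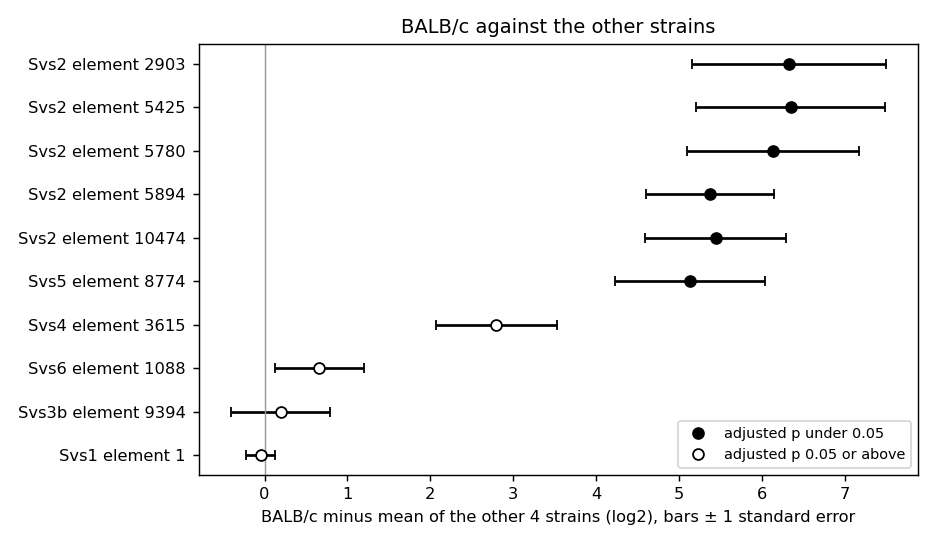
Difference in log2 ratio between BALB/c and the mean of the other 4 strains (horizontal axis) for the 10 Svs elements (vertical axis), with bars of 1 standard error of the limma fit and filled points for an adjusted p under 0.05. The elements of Svs2 and Svs5 lie between 5.13 and 6.35, Svs4 at 2.80 and the other genes below 1.

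Pairs of strains, each fitted on its own 8 arrays, placed the remaining genes. For Svs2 and Svs5, the pairs with BALB/c are again a description of size and not an independent test. Between BALB/c and DBA/2, 8 of 10 elements were higher in BALB/c, beside 1.94% of all elements. Besides Svs2 and Svs5 these were Svs4, by 3.34 on the log2 scale (SE 0.28, limma adjusted p = 3.69e-05), and Svs3b, by 0.87 (SE 0.20, limma adjusted p = 0.0348). The Svs3b call was kept without BALB/c pool 1 and lost without each other pool of the pair (limma adjusted p up to 0.103). Between BALB/c and FVB/NJ, 3 elements were higher in BALB/c, beside 1.27% of all elements. They were Svs4, by 3.27 (SE 0.47, limma adjusted p = 0.00232), Svs6, by 1.55 (SE 0.24, limma adjusted p = 0.00375), and Svs2 element 5894, by 3.29 (SE 0.67, limma adjusted p = 0.0241). The calls of Svs4 and Svs6 were kept with each of the 8 pools left out, and that of element 5894 in 3 of these 8 fits. Without FVB/NJ pool 2, the element 2903 of Svs2 (adjusted p = 0.0042) and Svs5 (adjusted p = 9.1e-04) passed in limma as well.

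The Svs2 and Svs5 elements, 6 in all, were higher in BALB/c than in C57BL/6J and than in 129X1/SvJ, beside 1.18% and 0.421% of all elements. For C57BL/6J the differences were 6.61 for Svs2 element 2903 (SE 0.95, limma adjusted p = 0.00302) and 5.27 for Svs5 (SE 0.81, limma adjusted p = 0.00451). Against 129X1/SvJ, Svs5 differed by 5.35 (SE 0.99, limma adjusted p = 0.0415) and passed in 1 of the 8 fits that left out a pool, namely without 129X1/SvJ pool 2. Svs2 element 2903 differed by 7.22 (SE 1.19, limma adjusted p = 0.0211) and passed in 2 of these 8 fits. Among strains other than BALB/c, 1 element passed, Svs2 element 5894, which was 3.06 higher in FVB/NJ than in DBA/2 (SE 0.71, limma adjusted p = 0.0368), beside 1.76% of all elements. Of the 8 fits that left out a pool, it passed in the one without FVB/NJ pool 2. In that fit all 5 Svs2 elements and Svs5 were higher in FVB/NJ than in DBA/2, by 3.91 to 5.24 (limma adjusted p from 1.86e-04 to 0.0024). In the other 5 pairs 0 elements passed in limma. Beside these zeros, 3.13% of all elements were called between FVB/NJ and C57BL/6J, 0.780% between FVB/NJ and 129X1/SvJ, 1.30% between C57BL/6J and 129X1/SvJ, 2.99% between C57BL/6J and DBA/2 and 1.21% between 129X1/SvJ and DBA/2. At an unadjusted p under 0.05 the counts of Svs elements were 3, 4, 0, 0 and 2 in the same order of pairs. Thus no Svs2 element passed between neighbours in the order of means below BALB/c, which ran through FVB/NJ, C57BL/6J, 129X1/SvJ and DBA/2.

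The spread between pools of a strain was itself large. The pooled SD within strains was 2.36 for Svs2 element 2903, the 5th highest of 11159 elements, against a median of 0.224 over all elements. It was 1.82 for Svs5 (23rd highest), 1.47 for Svs4 (42nd), 1.20 for Svs3b (71st), 1.08 for Svs6 (98th) and 0.341 for Svs1 (1758th). BALB/c had the lowest SD of the 5 strains for Svs2 (0.51), Svs5 (0.38) and Svs4 (0.33). In C57BL/6J, pools 2 and 3 were higher than pools 1 and 4 for Svs2, Svs5, Svs4, Svs6 and Svs3b. Those pools were labelled with Cy5 and pools 1 and 4 with Cy3, so in this strain pool and dye cannot be told apart. Over all strains, 0 of 10 Svs elements had a dye difference in limma, also at an unadjusted p under 0.05, beside 15.9% of all elements. That test averages over strains whose differences could have opposite signs. For Svs2 element 2903, Cy5 minus Cy3 was 3.19 in C57BL/6J, -3.03 in FVB/NJ, -2.40 in 129X1/SvJ, -1.56 in DBA/2 and -0.63 in BALB/c. For Svs4 it was 4.42 in C57BL/6J and between -1.03 and -0.44 in the other strains.

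Genes of the cluster moved together to different degrees. Over the 20 arrays, Svs2 and Svs5 correlated at r = 0.977 (Spearman's rho 0.956), and at 0.974 and 0.990 within the arrays with the sample in Cy3 and in Cy5. After strain means were removed the correlation was 0.951. Svs6 and Svs3b correlated at r = 0.832, and Svs4 and Svs6 at 0.799, which became 0.905 and 0.890 for deviations from the strain means. Spearman's rho of these deviations was 0.714 and 0.865. The deviations were largest in C57BL/6J, where the SD was 2.15 for Svs6 and 2.53 for Svs3b, against at most 0.73 and 0.66 in the other strains. Svs4 also followed Svs2 (r = 0.732) and Svs5 (0.794). Svs2 with Svs6 and Svs2 with Svs3b each had r = 0.261, and for deviations from the strain means 0.452 and 0.387. Svs5 had r = 0.372 with Svs6 and 0.380 with Svs3b, and 0.609 and 0.545 for deviations, so these pairs were closer within strains than over them. Svs1 had r from -0.301 to -0.088 with the other genes. These are descriptions over 15 pairs of genes whose arrays share the reference, and neighbouring element numbers had a median r of 0.228 over 10337 pairs.

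**Figure D4:**
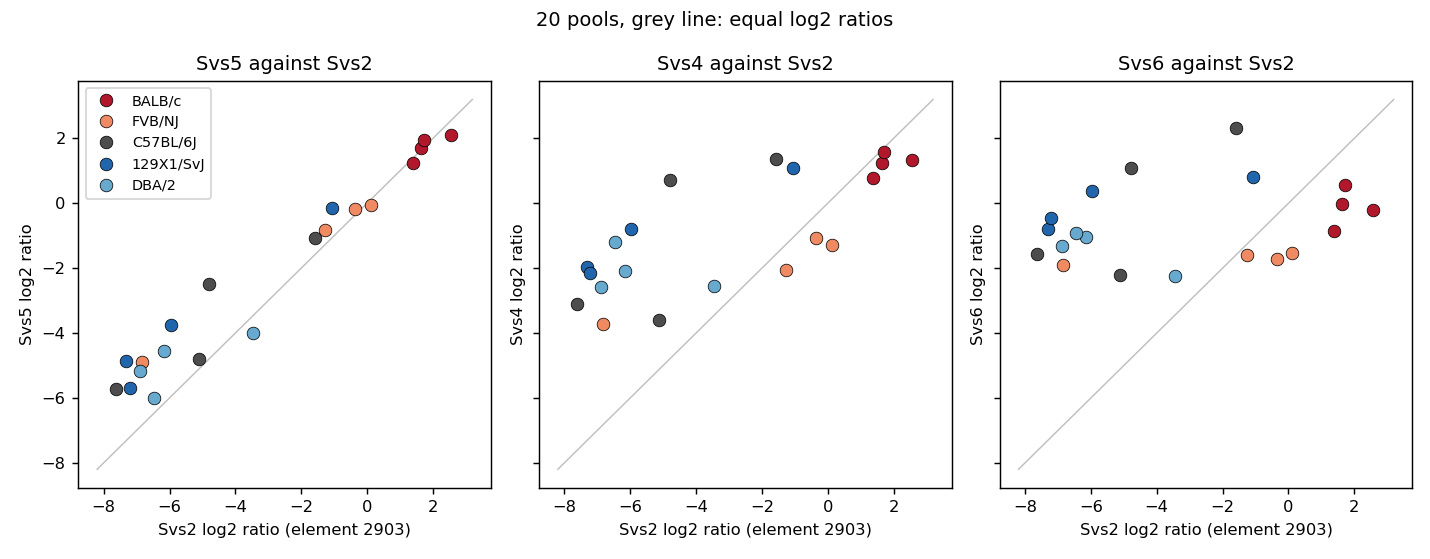
Log2 ratios of Svs5, Svs4 and Svs6 (vertical axes) against that of Svs2 (horizontal axis) in the 20 pools, colored by strain, with a grey line of equal ratios. Svs5 follows Svs2 (r = 0.977), Svs4 less closely (0.732), and Svs6 with r = 0.261 puts FVB/NJ and DBA/2 pools below 129X1/SvJ pools of similar Svs2.

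Differences between the log2 ratios of 2 genes were compared over strains by permutation of strain labels, a comparison added after the data were seen. For 9 of 10 pairs of the cluster genes the difference varied between strains at an adjusted p under 0.05. The p-values were adjusted over these 10 pairs, which share genes and are not independent. The share among other pairs of elements was not computed. Elements of 1 gene could also differ by strain: Svs2 elements 2903 and 5894 both averaged 1.83 in BALB/c, but -5.74 and -4.52 in DBA/2. Svs5 minus Svs4 averaged 0.511 in BALB/c and 0.547 in FVB/NJ, but -2.37 in C57BL/6J, -2.65 in 129X1/SvJ and -2.82 in DBA/2 (permutation adjusted p = 0.0022). Svs4 minus Svs6 averaged 1.36 in BALB/c and between -1.06 and -0.354 in the other strains (permutation adjusted p = 0.00306). Svs2 minus Svs5 was the pair that did not pass (permutation adjusted p = 0.0742). With the sample in Cy3 alone 0 pairs passed and with Cy5 alone 1 pair.

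Elements of other genes followed Svs2 to different degrees. The closest to Svs2 over the 20 arrays were those of Tshz2, a zinc finger factor (element 6958, r = 0.978), Smpd1, the acid sphingomyelinase (0.958), and Pate4, a seminal vesicle secretory protein (0.953). Next came Smad4 (0.788), Tlr4 (0.769), Anln (0.752), Cables1 (0.75), Uba7 (0.748), Rbm18 (0.748) and Gspt1 (0.738). For deviations from the strain means these fell to between 0.289 (Anln) and 0.685 (Tlr4), against 0.957 for Tshz2, 0.900 for Smpd1 and 0.919 for Pate4. Other elements of Tshz2 had r = 0.011 and 0.211 with Svs2 and did not pass the F test. Those of Smad4 had r = 0.717 and 0.392, that of Tlr4 0.362, those of Rbm18 -0.365 and 0.597 and those of Gspt1 -0.170 and 0.461. The Smpd1 element has the number next to that of Svs5 and correlated with it at r = 0.975, whereas the element on the other side of Svs5, Serpinb9, had r = 0.364. Elements numbered next to the other Svs elements had r from -0.648 to 0.742 with the Svs element beside them. The Uba7 element followed Svs4 most closely (r = 0.947), and its other element had r = -0.292 with Svs2. Whether these elements measure the named genes was not tested.

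Among other seminal vesicle genes, 1 of 3 measured passed the F test, namely Pate4, with means of 1.55 in BALB/c, -1.21 in FVB/NJ, -2.48 in C57BL/6J, -3.13 in 129X1/SvJ and -2.27 in DBA/2 (limma adjusted p = 0.00125). Sva and Spink1 did not (adjusted p = 0.907 and 0.361), and their differences between BALB/c and the other strains were 0.16 and -0.58, against 3.82 for Pate4. The mean log2 ratio of this list was 0.038 to 0.693 in BALB/c pools, against -1.81 to -0.064 in the other strains. Of the genes for cross-linking and cleavage of the clot, Tgm2 passed (adjusted p = 0.022) and Tgm3 and Tgm4 did not (0.446 and 0.909). Over all named genes, 725 of 5820 passed the F test. Among genes beside the cluster on chromosome 2, 2 of 5 passed. They were Wfdc2, a secreted protease inhibitor family member (limma F adjusted p = 1.3e-06), and Tnnc2, a muscle troponin (0.0208). Wfdc2 averaged -0.76 in BALB/c, -0.88 in C57BL/6J and -0.41 in FVB/NJ, against 0.58 in 129X1/SvJ and 0.51 in DBA/2. Its lowest mean was thus that of C57BL/6J, and BALB/c minus the others was -0.71 (limma adjusted p = 0.0025). Slpi, Ywhab and Dbndd2 did not pass the F test.

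Markers of tissues next to the prostate were read beside these differences. The counts below stand beside 725 of 5820 named genes past the F test. Of prostate lobe genes, 4 of 7 passed (Sbp, Spink8, Azgp1 and Tmprss2), and Pbsn, Tgm4 and Defb50 did not. The mean over that list was -0.173 to 0.186 in BALB/c pools and -0.721 to 0.228 in the other strains. One of 5 luminal and basal genes passed (Epcam), 2 of 4 adipose genes (Fabp4 and Lpl), 2 of 8 skeletal muscle genes (Acta1 and Tnnc2), 0 of 6 smooth muscle genes, 1 of 2 leukocyte genes (Lyz2) and the single urothelial gene, Upk1b. Genes of the epididymis and vas deferens were not analysed here, since none of the 11 was among the elements tested. In the comparison of BALB/c with the other strains, 58 of 5820 named genes were called higher and 69 lower in BALB/c. Spink8 was 2.08 higher and Lyz2, a lysozyme of myeloid cells, 0.81 higher in BALB/c, and Azgp1 differed by -0.94 and Acta1 by -0.65. These single genes did not stand for their lists. Adgre1, the other leukocyte gene, differed by -0.008. The median difference was 0.129 over the skeletal muscle list and 0.101 over the prostate lobe list. The part of other tissues in the Svs differences was not tested.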

How the data were processed

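The deposited values are log2 ratios of sample over reference made by the authors, who scanned the cDNA arrays on a GenePix scanner, subtracted the local background and applied print-tip loess within arrays. Spot intensities were not used here, so signal over background is unknown, and ratios of dim spots are the least certain. Arrays held 10998 to 11251 values (2.89% missing of 11552 elements). The tests covered the 11159 elements that lacked no more than 3 values and had 2 or more per strain (393 were left out). The annotation gives 1 symbol to 8050 elements, and a gene with several is given by its most complete element, then the lowest number. Strains were mapped from the labels and compared with limma 3.58.1 in R 4.3.3 and Benjamini-Hochberg adjustment over all elements. Permutation tests used 100000 permutations, and the scripts were tested on simulated data. Named genes are the Svs elements, list genes past the F test, the 10 elements most like Svs2 and the elements numbered next to that of Svs5. List genes that missed the test are named with their lists. Members, lists and the comparison of BALB/c with the other strains were chosen with earlier results of these data known.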

Additional observations from a re-analysis of the deposited data

Results flagged for a closer look

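Among 50 groups of 4 pools (10 elements in 5 strains), 4 had 1 pool whose gap to the nearest other pool exceeded Dixon's 95% limit, where chance flags about 1 in 20. Svs5 in FVB/NJ pool 2 read -4.89, far below its 3 other pools. Svs2 in 129X1/SvJ pool 2 read -1.09 on element 5894 and -1.44 on element 10474, above the other pools of the strain. Svs1 in C57BL/6J pool 1 read 1.14, above the other pools.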

How the results depend on the processing

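The count of Svs elements past the F test was 6 in the settings as reported and 6 to 8 under other filters, centring, scaling, quantile normalization, a dye term, weights and each pool left out, but 3 with the sample in Cy5 alone. The BALB/c count was 6 or 7 in those settings, but 3 in Cy3 alone and 1 in Cy5 alone, where 10 arrays entered. Over all elements, the F test called 1260, against 815 in Cy3 alone, 305 in Cy5 alone and 2488 with arrays weighted by precision. The BALB/c comparison called 227, against 368 with arrays scaled to one median absolute deviation, 390 with quantile normalization, 109 in Cy3 alone, 54 in Cy5 alone, 409 with weights and 403 without the 129X1/SvJ arrays. For the other strains against the rest, 0 Svs elements became 1 with complete elements only, 6 with scaling, 6 with quantile normalization, 1 in Cy5 alone and 6 with weights, and 0 to 5 with a pool left out (5 without FVB/NJ pool 2 or 129X1/SvJ pool 2). Differences between genes passed in 9 pairs, 0 in Cy3 alone and 1 in Cy5 alone, and 9 to 10 with a pool left out. Svs4 passed the F test with complete elements only (adjusted p = 0.0943), scaling (0.0188), quantile normalization (0.0035), the dye as a term (0.0966), weights (0.0102), without the 129X1/SvJ arrays (0.0491), with elements averaged by gene (0.0892), in Cy3 alone (0.0479) and in Cy5 alone (0.0803). It did not pass with robust moderation (0.196), no moderation (0.21), the other filter or centring, and ranged from 0.0446 (without C57BL/6J pool 2) to 0.245 (without BALB/c pool 4) with a pool left out. It passed without each C57BL/6J pool and without 129X1/SvJ pool 2 or 4. Svs6 passed with quantile normalization (0.0303), in Cy5 alone (0.0188), with weights (0.0682) and without C57BL/6J pool 4 (0.0635). Differences that turned sign were those of genes not called: for BALB/c minus the others, Svs1 was -0.05 as reported, 0.15 in Cy3 alone and -0.172 to 0.0181 with a pool left out. Svs6 was 0.66 as reported and -0.11 in Cy5 alone. Svs3b was 0.20 as reported, -0.39 in Cy5 alone and -0.0401 to 0.442 with a pool left out, the lowest without C57BL/6J pool 4. The cause of these shifts was not tested.

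Whether pool numbers pair the samples was not tested. Between strains, the median correlation was 0.183 for same-numbered pools and -0.032 for differently numbered ones. Within the same dye these medians were 0.266 and 0.181. The lowest correlation of same-numbered pools was -0.330, and 10 of 20 arrays matched best with their own number. With the pool number as a replicate block, 6 Svs elements passed the F test and 6 the BALB/c comparison, and 31 in place of 24 calls were made over the pairs of strains.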
